A study of Mus musculus with 37 samples.

Results

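The strong CTCF loops were the loops supported by 50 or more paired-end tags (PETs) in a CTCF ChIA-PET map of mouse excitatory neurons, 978 of the 27786 loops in the map. A PET is a sequenced DNA fragment whose ends came from a pair of sites that were ligated together after CTCF immunoprecipitation, so the PET count of a loop counts the ligations between its anchors. The loops were chosen by this count, and their PET counts are given as a description. The map came from 1 library of neuronal nuclei labelled WT, sorted by the Sun1-GFP reporter of 12-week-old Camk2a-creERT2 mice after tamoxifen, without replicate. Hippocampal RNA-seq covered 3 control and 3 Kdm1a-ifKO male mice, with 1 library per mouse. All 6 mice carried floxed Kdm1a alleles (Kdm1a f/f) and received tamoxifen at 8 weeks of age. The Kdm1a-ifKOs also carried the Camk2a-creERT2 transgene, a recombinase driven by the Camk2a promoter in principal neurons of the forebrain, whereas the control littermates lacked it. Presence of the transgene and loss of Kdm1a therefore cannot be told apart in these libraries. The RNA came from whole hippocampus, which also holds interneurons, glia and vessels, so fewer cells of a type and less RNA per cell cannot be told apart either.

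CTCF is a zinc-finger protein that binds a directional DNA motif and stops the cohesin ring as it extrudes chromatin. Loops form most readily where the motifs at the anchors face each other, an arrangement called convergent. Such loops delimit domains within which enhancers and promoters meet, and they can place silent genes next to active ones. Kdm1a (LSD1) removes methyl groups from lysine 4 of histone H3 and acts within repressor complexes such as CoREST.

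The motif at the anchors was searched as the letters CCANNAGNNGGC, a core form of the CTCF motif, on both strands of GRCm38 (mm10). Sites that depart from these letters were not counted. The sequences below are those of 6 loops among the strongest with exactly 1 match at each anchor, shown because the strand of the match sets the orientation of the loop. Each is read 5′ to 3′ on the strand of the match, with the match in capitals and 9 bases on each side.
Inpp5a loop, left anchor, plus strand, chr7:139303461-139303490: tcagctctgCCAGCAGAGGGCaccccacac
Inpp5a loop, right anchor, plus strand, chr7:139471064-139471093: ggtttatggCCAGAAGAAGGCttctgctgg
Wnt4 loop, left anchor, minus strand, chr4:137072776-137072805: actggcaagCCACCAGGTGGCgcccttgac
Wnt4 loop, right anchor, minus strand, chr4:137308614-137308643: ggagaacatCCACTAGGTGGCagaaaaaca
Rhbdf1 loop, left anchor, plus strand, chr11:32217023-32217052: aataaatgaCCACGAGGTGGCgccaactgc
Rhbdf1 loop, right anchor, minus strand, chr11:32232368-32232397: cttcagacaCCAGAAGAGGGCattacatgc
Drd1 loop, left anchor, plus strand, chr13:53775921-53775950: cgttagtagCCATTAGGAGGCtctctttcc
Drd1 loop, right anchor, minus strand, chr13:54062246-54062275: tgcctcaggCCACAAGAGGGCttcattgta
Rhob loop, left anchor, plus strand, chr12:8326988-8327017: ctgctgtggCCACAAGGGGGCgctcgggct
Rhob loop, right anchor, minus strand, chr12:8502764-8502793: tgaatactgCCACAAGGTGGCgctaaaatc
Arhgap22 loop, left anchor, plus strand, chr14:33213906-33213935: ctctaatgaCCACCAGAGGGCgctccaaac
Arhgap22 loop, right anchor, minus strand, chr14:33303631-33303660: caagtttgtCCACTAGGTGGCactcacacc

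A match on the plus strand at the left anchor and on the minus strand at the right anchor is convergent. The Rhbdf1 loop (194 PETs), the Drd1 loop (194 PETs), the Rhob loop (189 PETs) and the Arhgap22 loop (185 PETs) had this arrangement. The Inpp5a loop (213 PETs) and the Wnt4 loop (202 PETs) were tandem, with both matches on the same strand. The matches did not sit at a fixed place in the anchors, and lay between 0.067 kb and 4.2 kb from the anchor midpoints.

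Over all 978 strong loops, 1501 of 1956 anchors (76.7%) held at least 1 match, and 459 of them held matches on both strands. Same-width regions moved 20 kb outward from these anchors held a match in 53.0% of 1956 cases. Anchors of loops with 10 to 49 PETs held a match in 54.7% (moved regions 25.7%), and those of loops with 3 to 9 PETs in 33.6% (moved regions 11.8%). The 3 classes differed in anchor width, and so in the length searched. In a window of 1 kb at the anchor midpoint, chosen after the data were seen, 26.0% of the strong anchors held a match, against 30.7% for loops with 10 to 49 PETs and 30.2% for loops with 3 to 9 PETs.

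In 276 strong loops, each anchor had matches on a single strand, and 178 of these loops were convergent (64.5%, Wilson 95% interval 58.7% to 69.9%). A further 81 loops were tandem (29.3%) and 17 were divergent (6.16%). The convergent share was 63.6% (61.0% to 66.2%, 1309 loops) at 10 to 49 PETs and 46.7% (44.7% to 48.8%, 2210 loops) at 3 to 9 PETs. The interval of the strong loops overlapped that of the middle class, and both lay above that of the weakest class. The intervals cover counting error only, since all loops come from 1 library. Among the strong anchors with exactly 1 match, 571 matches pointed into the loop and 166 away from it. The corresponding numbers were 3756 and 997 at 10 to 49 PETs, and 8681 and 3941 at 3 to 9 PETs. Median PET counts of the convergent, tandem and divergent strong loops were 75, 75 and 81.

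The strong loops made up 3.52% of the loops and held 96694 of 305716 PETs (31.6%). Their median was 77 PETs, with quartiles of 60 and 112 and a maximum of 1242. Of the 978 loops, 294 had at least 100 PETs, 66 at least 200, 15 at least 300 and 4 at least 500. At the threshold, 33 loops had 50 PETs and 28 loops just outside it had 49. A count of 50 has an exact Poisson 95% interval of 37.1 to 65.9, so loops near the threshold could fall on either side by counting error alone.

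Strong loops spanned a median of 106 kb between anchor midpoints (exact binomial 95% interval of the median 97.5 to 114 kb), with quartiles of 57.4 and 179 kb. The median was 113 kb (108 to 117 kb) for loops with 10 to 49 PETs and 117 kb (114 to 119 kb) for loops with 3 to 9 PETs. The classes differed mainly at the extremes. Spans over 500 kb occurred in 29 strong loops (2.97%), in 7.43% of the middle class and in 11.3% of the weakest, and no strong loop spanned over 2 Mb, against 255 of the weakest class. Spans under 25 kb occurred in 88 strong loops (9.0%), 14.3% of the middle class and 16.5% of the weakest. Within the strong loops, PET count and span were nearly unrelated (Spearman's rho -0.08, n = 978 loops of 1 library).

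**Figure D1:**
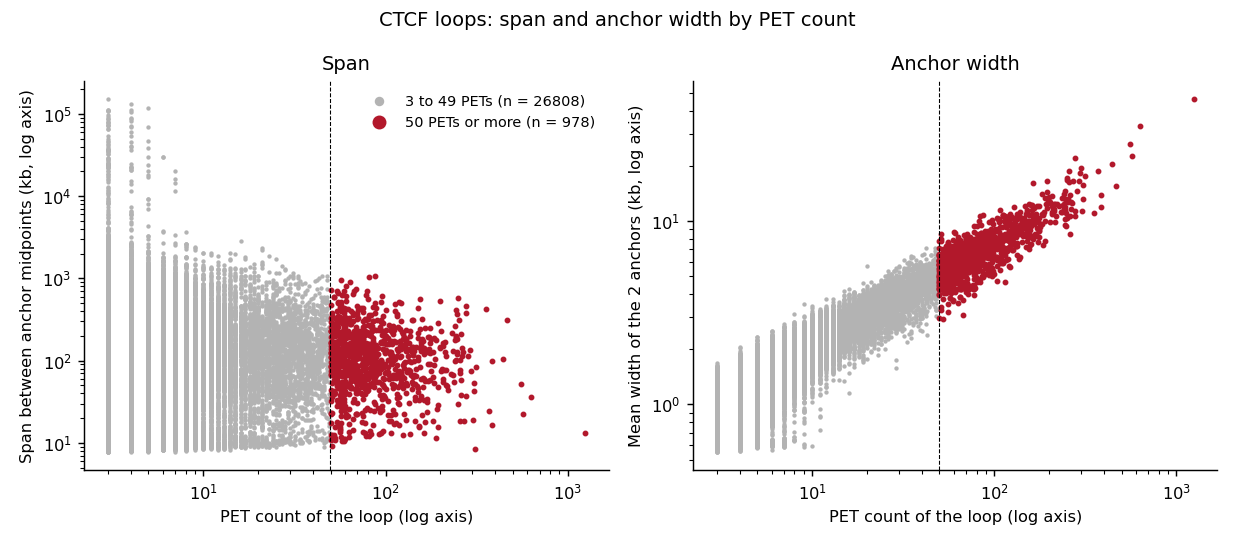
Each point is 1 loop of the map, with its PET count on the x axis (log) and its span (left) or mean anchor width (right) in kb on the y axis (log). Red points are the 978 strong loops and grey points the other 26808. Spans narrow toward a median near 106 kb in the strong loops, while anchor width climbs steadily with the PET count.

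The shortest strong loops all lay on chromosome 11, with spans of 8.52 kb within Sfi1 (308 PETs), 9.28 kb at Rapgefl1 (51 PETs) and 10.4 kb at Grn and Fam171a2 (58 PETs). The longest enclosed Lpp (1081 kb, 87 PETs, an anchor at Bcl6), Plk2 and Actbl2 (1031 kb, 81 PETs) and Tcerg1l (952 kb, 57 PETs). The Lpp loop, which begins at the gene of the transcriptional repressor Bcl6, was convergent.

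Anchors of the strong loops had a median width of 6.62 kb, from 2.35 to 47.7 kb, against 2.77 kb at 10 to 49 PETs and 1.17 kb at 3 to 9 PETs. Width rose with PET count in the strong loops (rho 0.75, n = 978) and in the whole map (rho 0.85, n = 27786). Width is therefore no independent property of the strong loops, and it raised the number of genes that an anchor could touch. In 5 loops the anchors overlapped each other, and all 5 were strong. These were the loops at Camk2a and Arsi (1242 PETs), Sfi1 (308), Ptma (301), Wnt6 and Wnt10a (256) and Rhbdf1 (194).

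Strong loops lay on every autosome, from 22 on chromosome 13 to 102 on chromosome 2. Per length, chromosome 11 had the highest density (81.1 per 100 Mb, 99 loops), followed by chromosomes 19 (61.9), 7 (58.4) and 2 (56.0). All loops of the map were also densest on chromosomes 11 (2196 per 100 Mb), 19 (1682) and 7 (1572). Strong loops were 3.69%, 3.68% and 3.72% of the loops there and 4.51% on chromosome 2, beside 3.52% over the map. Chromosome 13 had the lowest autosomal density (18.3). Across the 19 autosomes, the density of strong loops and that of protein-coding genes had a rho of 0.78. Chromosome X held 1 strong loop (54 PETs, with Ammecr1 inside), or 0.585 per 100 Mb against 39.7 for the autosomes together. The whole map held 55 loops on chromosome X.

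**Figure D2:**
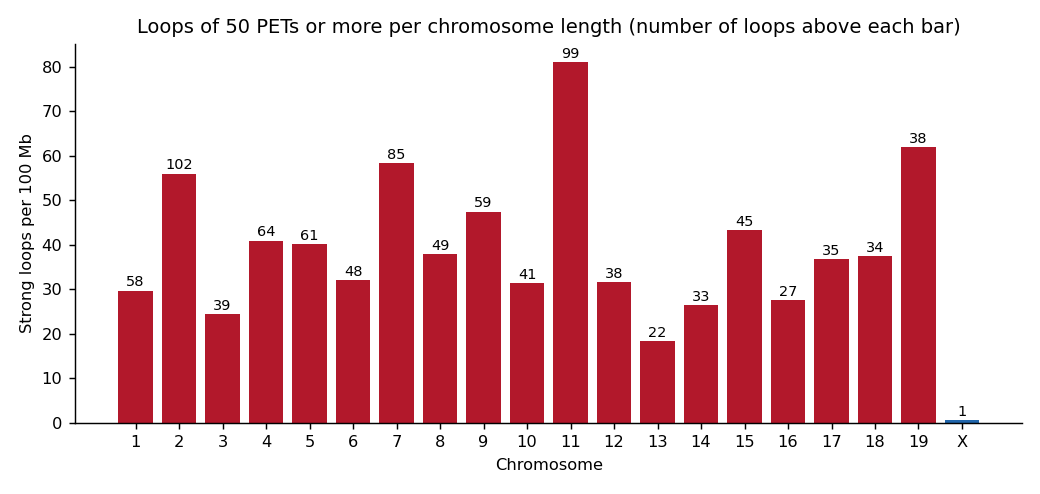
Bars give the strong loops per 100 Mb of each chromosome (y axis, from 0) and the numbers above them the loops themselves. Chromosome 11 stands highest at 81.1 and chromosome X holds 1 loop.

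The 1956 anchors merged into 1760 separate sites, of which 169 (9.60%) served at least 2 strong loops. The busiest sites served 4 loops each and lay at Med24 (a subunit of the Mediator complex), at Litaf, at Arsi and Camk2a, and at Cd82. Of the shared sites, 62 were left anchors in all their loops, 52 were right anchors and 55 were both. Linked by shared sites, the loops fell into 797 groups, and 664 groups were a single loop. The largest group joined 8 loops over 0.726 Mb of chromosome 2 (chr2:93064654-93790513). A further count showed 80 loops (8.18%) nested inside another strong loop. Together the strong loops covered 129 Mb, 4.74% of the chromosomes.

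At the midpoint of the anchor, 187 anchors (9.56%) fell in an exon of a protein-coding gene, 703 (35.9%) in an intron and 1066 (54.5%) outside such genes. A protein-coding transcription start site lay in 339 anchors (17.3%), and only 28 loops (2.86%) had one at both ends. In 309 loops no protein-coding gene lay whole inside, 397 loops held 1, 252 held 2 to 5 and 20 held 6 or more. The fullest loop (chr11:99461661-100285082, 61 PETs) enclosed 59 genes, among them 23 keratin-associated protein genes and 18 keratin genes. Of these 59 genes, 1 reached 5 TPM in controls (a level scaled by library size and by exon length). A loop on chromosome 15 (66 PETs, 644 kb) enclosed 26 genes of the other keratin cluster, and 3 reached 5 TPM. Another loop (76 PETs, 132 kb, chromosome 2) enclosed 9 genes of the Wfdc and Spint protease inhibitors, with none at 5 TPM.

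The 15 strongest loops had at least 301 PETs. The pair at the top lay at Camk2a, the calcium/calmodulin-dependent kinase of excitatory synapses, and Arsi, an arylsulfatase (1242 and 627 PETs, chromosome 18). Next came a loop from Sfi1 to Drg1 (568 PETs, 22.7 kb) and one from Ubl7 and Sema7a to Cyp11a1 (553 PETs, 52.4 kb). The annotated body of Drg1 overlaps that of Sfi1 on the same strand. A loop on chromosome 7 joined the potassium channel gene Kcnq1 to Cdkn1c, an imprinted inhibitor of the cell cycle (464 PETs, 315 kb). Others ran from Hdac11 to Fbln2 (443), from Prdx2 and Junb to Hook2 (384), around Meox1 (383), around Stac (354), and from Arhgap40 to Actr5 (313). The last 4 were the loops within Sfi1 (308), from Foxn1 to Slc13a2 (306), at the amino acid transporter gene Slc7a5 (304) and at Ptma (301). None of these 15 had matches on a single strand at both anchors, so none could be oriented.

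Control levels of the genes in the 15 strongest loops ranged widely. Camk2a stood at 2471 TPM (± 67.5 SD, n = 3), Prdx2 at 191 TPM, Sema7a at 178 TPM, Ptma at 162 TPM and Hdac11 at 146 TPM. At the other end, Slc13a2 had no count in any control and Foxn1, the thymus regulator, had 0.0653 TPM. The Arhgap40 to Actr5 loop enclosed Slc32a1, the vesicular transporter of GABA (72.5 TPM), although the map came from nuclei of excitatory neurons. Meox1 (2.29 TPM) and Stac (5.56 TPM) were the only protein-coding genes inside their loops. Gm20388, a very long annotated model at anchors of 14 strong loops, had no count in any of the 6 libraries. Sema7a, a semaphorin gene, was at 157, 148 and 138 CPM in controls and 127, 125 and 122 CPM in Kdm1a-ifKOs. The groups did not overlap (log2FC -0.24, SE 0.0564, adjusted p = 0.0176, edgeR), but it no longer passed without control replicate 1 or 2 or Kdm1a-ifKO replicate 1 or 3 (0.0534 to 0.0927).

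A gene was counted as at an anchor when its body overlapped it, and as inside a loop when its whole body lay between the outer anchor edges. There were 1387 genes at strong anchors (1079 protein-coding) and 2485 inside strong loops (1118 protein-coding), 3342 in all, with 530 genes in both sets. Protein-coding genes at strong anchors had a median of 14.6 TPM in controls, and 66.4% of them reached 5 TPM. Those at anchors of weaker loops only had a median of 17.7 TPM (69.7% at 5 TPM) and all counted protein-coding genes one of 6.58 TPM (52.4%). Protein-coding genes inside strong loops had a median of 4.39 TPM, 48.6% at 5 TPM and 35.5% under 1 TPM. Those inside weaker loops of up to 2 Mb only had a median of 9.48 TPM, with 56.4% at 5 TPM and 31.0% under 1 TPM. Of all counted protein-coding genes, 36.1% were under 1 TPM, near the share inside strong loops. Genes at anchors were longer (median 30.5 kb) than genes inside (11.7 kb).

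The 10 highest genes at strong anchors were Ncdn (3201 TPM), Nrgn (2484), Apoe (2473), Camk2a (2471), Hpca (2212), Kif5a (1690), Ndrg4 (1516), Cplx2 (1358), Olfm1 (1301) and Mbp (1110). Most encode abundant neuronal proteins, such as neurogranin (Nrgn), hippocalcin (Hpca) and the synaptic complexin Cplx2. Apoe is a lipid carrier made mainly by astrocytes, and Mbp is the myelin basic protein of oligodendrocytes. Thus loops mapped in neuronal nuclei also touched genes of glia. Of these 10, Apoe (log2FC 0.30, SE 0.0498) and Kif5a, a kinesin (0.19, SE 0.0510), passed the test of genotype in edgeR, with adjusted p of 0.00205 and 0.0370. Kif5a no longer passed without control replicate 1 or 2 or Kdm1a-ifKO replicate 2 or 3 (adjusted p 0.0816 to 0.160) and under the replicate block (0.0942).

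The RNA-seq libraries held between 18985542 and 19469947 counts, and 16799 genes were tested. The targeted gene came first. Kdm1a itself lay whole inside a strong loop (chr4, 74 PETs, 167 kb). It stood at 79.5, 81.0 and 79.5 CPM (counts scaled to library size) in controls (replicates 1 to 3) and at 39.2, 36.8 and 38.4 CPM in Kdm1a-ifKOs. All 3 Kdm1a-ifKOs were below all controls, with a log2FC of -1.07 (SE 0.0559, adjusted p = 6.24e-08, edgeR).

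A gene was called when its adjusted p was under 0.05 and its log2FC above 0.5 or below -0.5. Among all tested genes, 530 were called higher in Kdm1a-ifKOs (3.15%) and 47 lower (0.280%). Of the genes at strong anchors, 970 of 1387 could be tested, and 46 were higher (4.74%) and 4 lower (0.412%). Of the genes inside, 894 of 2485 could be tested, and 44 were higher (4.92%) and 4 lower (0.447%). The corresponding shares of higher genes were 3.8% at anchors of weaker loops only and 3.92% inside weaker loops only. With the adjusted p alone, 10.7% of the tested genes at strong anchors and 12.0% of those inside were higher (all tested genes 6.04%), and 1.13% and 1.79% were lower (all tested genes 2.82%). By the same rule, 7.57% at anchors of weaker loops only and 7.23% inside weaker loops only were higher, and 2.76% and 1.86% were lower. The median log2FC was 0.066 at anchors, 0.090 inside and -0.003 over all tested genes with a position. Counts of lower genes rested on single libraries. Lower genes at anchors numbered 9 without Kdm1a-ifKO replicate 2, 2 without control replicate 1 or Kdm1a-ifKO replicate 1, 1 without control replicate 2 or 3, and 0 in edgeR without Kdm1a-ifKO replicate 3, where 7 had an unadjusted p under 0.05. Lower genes inside numbered 11 without Kdm1a-ifKO replicate 2, 7 without control replicate 2 and 2 without any other library. These shares describe the lists. The lists differ from other genes in length and level, and whether the shares differ from the background was not tested.

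In all, 77 called genes lay at or inside strong loops, 70 higher and 7 lower. They were spread over 91 strong loops (9.30%), and in only 6 loops did more than 1 called gene occur. The loop around the otopetrins on chromosome 11 (66 PETs) held 3, and the loop from Slc29a1 to Capn11 on chromosome 17 (140 PETs) held both of these. Of the 77, 29 were only at an anchor, 27 only inside and 21 both.

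**Figure D3:**
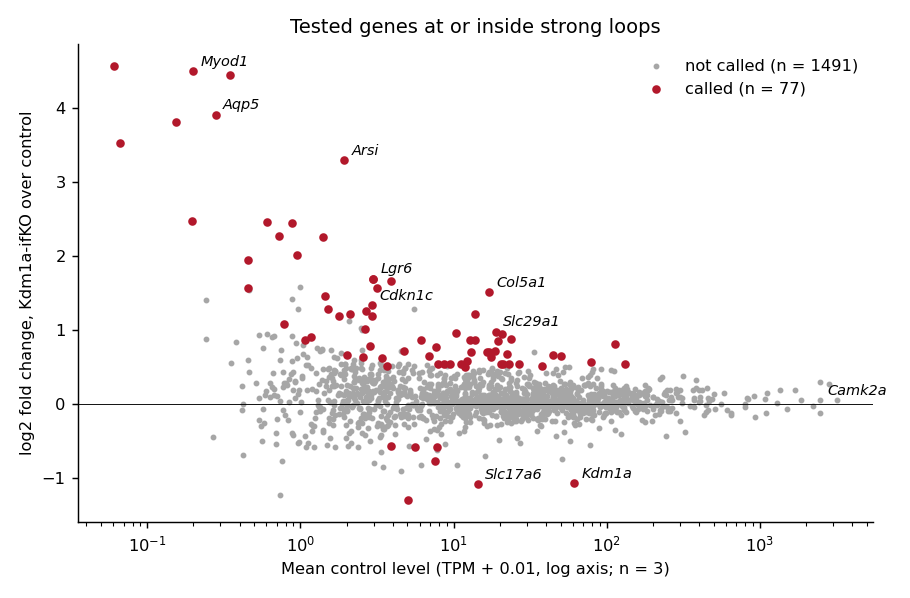
Each point is 1 of the 1568 tested genes at or inside strong loops, with its mean control level in TPM (x axis, log) and its log2FC in Kdm1a-ifKOs (y axis). The 77 called genes are red, 70 of them above 0, and the largest changes sit at the left, among genes with low control levels.

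The strongest loop of the map held the gene with the smallest adjusted p of the 77. Arsi lay inside the 1242-PET loop and at the anchors of that loop and of its neighbours (627 and 277 PETs). The 1242-PET loop spanned 13.2 kb between midpoints, and its anchors (median width 46.4 kb) overlapped each other. Inside there means only between the outer anchor edges. Its levels were 1.31, 1.63 and 1.40 CPM in controls and 13.9, 12.9 and 16 CPM in Kdm1a-ifKOs. The groups were far apart, with a log2FC of 3.30 (SE 0.151, adjusted p = 1.76e-08, edgeR). Camk2a, at the anchors of the same loops, was at 4764, 4563 and 4582 CPM in controls and 4988, 4471 and 4978 CPM in Kdm1a-ifKOs. These values overlapped (log2FC 0.05, SE 0.0535, adjusted p = 0.584).

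The genes beside the Camk2a loops were read as well, since the Kdm1a-ifKOs, but not the controls, carried a transgene with Camk2a regulatory sequence. Slc6a7, a proline transporter gene next to Camk2a and outside any strong loop, was at 105, 108 and 102 CPM in controls and 162, 169 and 149 CPM in Kdm1a-ifKOs. It was higher in all 3 (log2FC 0.61, SE 0.0575, adjusted p = 1.59e-05). Farther out, Pdgfrb (log2FC 0.39), Csf1r (0.33) and Ndst1 (0.26) were higher, with adjusted p of 0.00490, 0.0377 and 0.00618, and Csf1r no longer passed without any library but Kdm1a-ifKO replicate 1 (0.0805 to 0.113). Tcof1 (0.14), Hmgxb3 (-0.02), Rps14 (0.05) and Cd74 (1.16, SE 0.924) did not pass the test. Whether DNA of the transgene contributed to the RNA of Arsi or Slc6a7, or to the PETs of these loops, was not tested. The nuclei of the map came from mice with the same transgene.

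**Figure D4:**
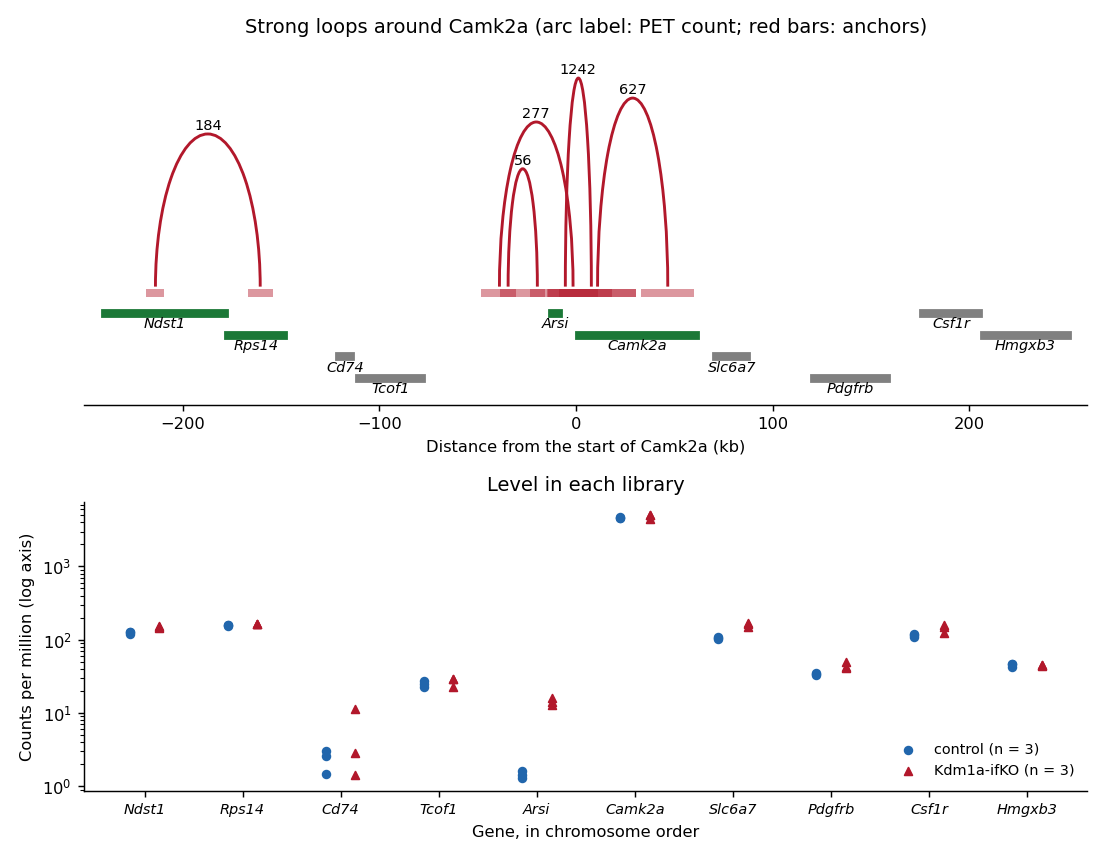
Top, the strong loops around Camk2a as arcs with their PET counts, anchors as red bars, and genes drawn green when at or inside a strong loop and grey otherwise, by distance from the start of Camk2a in kb. Bottom, CPM (log axis) of each gene in the 3 control (circles) and 3 Kdm1a-ifKO libraries (triangles), where Arsi moves from between 1.31 and 1.63 to between 12.9 and 16 CPM.

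Among called genes of at least 1 CPM in the higher group, the largest increases were in genes close to 0 in controls. Myod1, the regulator of skeletal muscle, lay inside and at an anchor of a 60-PET loop from Otog. It was at 0.0522, 0.0524 and 0.161 CPM in controls and 2.26, 1.62 and 2.51 CPM in Kdm1a-ifKOs (log2FC 4.50, SE 0.432, adjusted p = 1.78e-05). Tfap2e, an AP-2 transcription factor, lay inside a 90-PET loop that ends at Ncdn, the highest gene at any strong anchor. It was at 0.157, 0.0524 and 0.322 CPM in controls and 4.47, 3.14 and 4.31 CPM in Kdm1a-ifKOs (log2FC 4.45, SE 0.364, adjusted p = 3.85e-06). In both genes the groups were clearly apart, and the fold changes rest on control levels near 0.

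Aqp5, a water channel of glands, lay at an anchor of 2 loops to Asic1, an acid-sensing ion channel gene (216 and 79 PETs). It was at 0.261, 0.105 and 0.161 CPM in controls and 2.31, 2.43 and 3.49 CPM in Kdm1a-ifKOs (log2FC 3.91, SE 0.360, adjusted p = 1.15e-05). The otopetrin loop held Otop3 (3.82, SE 0.522) and Otop2 (2.27, SE 0.355), which encode proton channels, and Ush1g (2.46, SE 0.230), a scaffold protein of hair cells. All 3 genes rose, although Otop2 and Ush1g overlap on opposite strands and may share reads. Lefty2, an inhibitor of Nodal, rose from 0.731, 0.892 and 1.13 to 4.62, 5.17 and 3.38 CPM (log2FC 2.26, SE 0.240, adjusted p = 4.91e-05). Aire, which drives expression of tissue antigens in the thymus, was at 0.836, 0.996 and 0.859 CPM in controls and 3.95, 4.51 and 2.51 CPM in Kdm1a-ifKOs (log2FC 2.02, SE 0.261, adjusted p = 2.73e-04).

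Genes with higher control levels rose as well. Col5a1, a fibrillar collagen gene at an anchor of a 113-PET loop, had the highest control level among the increases above 1 on the log2 scale. It was at 38.9, 39.3 and 30.7 CPM in controls and 101, 113 and 96.7 CPM in Kdm1a-ifKOs (log2FC 1.51, SE 0.0968, adjusted p = 7.06e-06). Col18a1, a collagen of basement membranes, rose by 1.69 (SE 0.129, 108 PETs). Lgr6, a receptor for R-spondins whose body reached both anchors of a 162-PET loop, was at 4.49, 5.66 and 5.26 CPM in controls and 17.9, 15.6 and 16.5 CPM in Kdm1a-ifKOs (log2FC 1.70, SE 0.115, adjusted p = 8.13e-07). Tjp3, a protein of tight junctions, rose by 1.46 (SE 0.198). Espn, which bundles actin in hair cells, was at 8.46, 8.13 and 7.57 CPM in controls and 24.4, 26.8 and 25.2 CPM in Kdm1a-ifKOs (log2FC 1.66, SE 0.0871, adjusted p = 6.24e-08), and its loop had 50 PETs, the lowest count admitted.

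**Figure D5:**
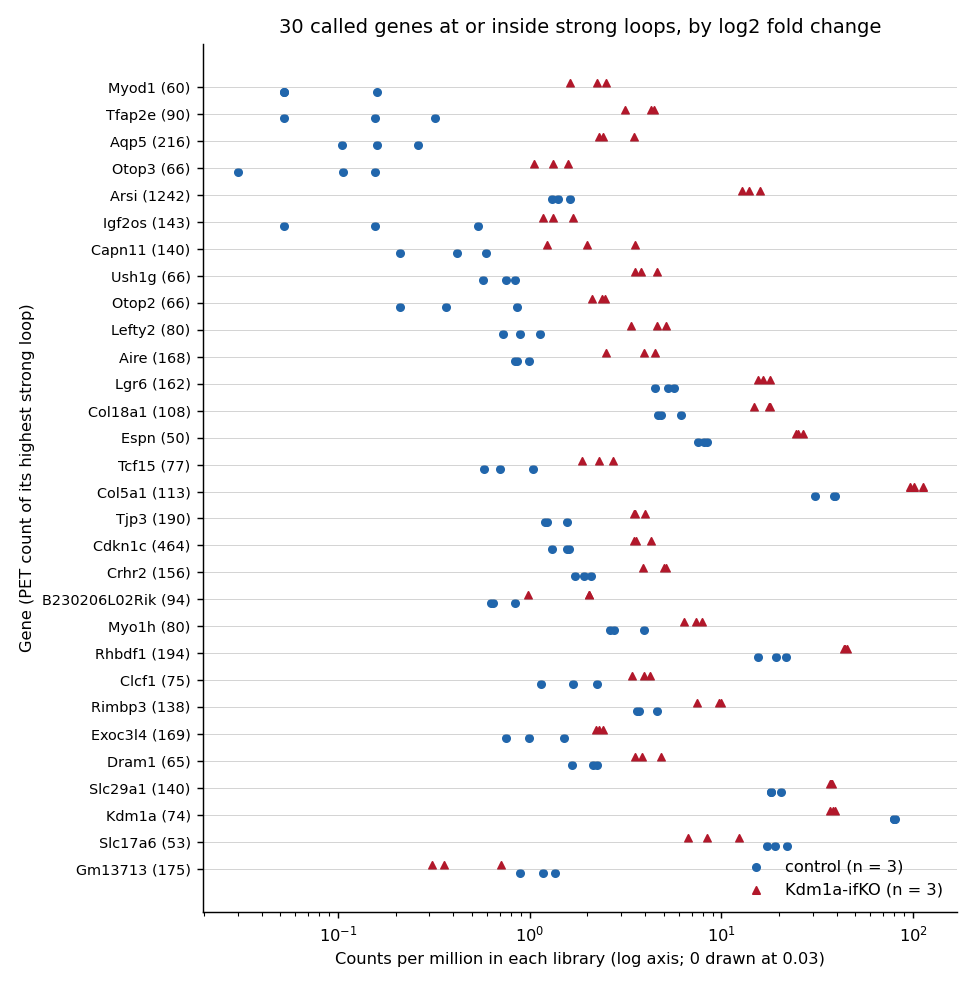
CPM (x axis, log) of the 30 named called genes in each of the 3 control (blue circles) and 3 Kdm1a-ifKO libraries (red triangles), ordered by log2FC, with the highest PET count of a strong loop of each gene in parentheses. In all 30 genes the 3 red points lie apart from the 3 blue points, and only Kdm1a, Slc17a6 and Gm13713 are lower in Kdm1a-ifKOs. The genes were chosen by their change in these same libraries, so the separation is no further evidence for it.

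Other called genes lay at the ends of loops that joined named genes. Cdkn1c, at the right end of the Kcnq1 loop, was at 1.31, 1.57 and 1.61 CPM in controls and 3.6, 4.31 and 3.49 CPM in Kdm1a-ifKOs (log2FC 1.34, SE 0.195, adjusted p = 7.21e-04). Kcnq1, at the other end, stayed under 1 CPM in every library (log2FC 0.09, SE 0.404). Rhbdf1, an inactive rhomboid protease gene beside Nprl3 and Mpg, was at 21.8, 15.6 and 19.4 CPM in controls and 45, 43.7 and 44.0 CPM in Kdm1a-ifKOs (log2FC 1.22, SE 0.0991, adjusted p = 1.05e-05). Slc29a1, a nucleoside transporter gene, rose by 0.98 (SE 0.0713), and Capn11, a calpain at the other end of its loop, by 2.46 (SE 0.475). Both ends of that loop thus held a called gene.

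The remaining named increases were in Tcf15, a bHLH factor of the mesoderm (log2FC 1.56), the receptor gene Crhr2 (1.29), Myo1h (1.22), the cytokine gene Clcf1 (1.20), Rimbp3 (1.19), Exoc3l4 (1.08), Dram1 (1.01) and the transcripts B230206L02Rik (1.25) and Igf2os (2.47). Adjusted p ranged from 3.13e-04 for Rimbp3 to 0.0325 for B230206L02Rik. The call of B230206L02Rik was lost without control replicate 1 or 3 or Kdm1a-ifKO replicate 2 or 3 (0.0739 to 0.128), and that of Exoc3l4 without control replicate 1 or 3 or Kdm1a-ifKO replicate 1 (0.0592 to 0.0605). Igf2os is antisense to Igf2, and without a stated strand its reads cannot be told from those of Igf2. A further 39 genes rose by 0.50 to 0.96. Another 4 genes rose but stayed under 1 CPM in both groups, namely Nxnl1, Pkp1, Dbh and Tnfrsf13c, which are named here after their values were seen.

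The 7 genes called lower included Kdm1a. Slc17a6, the vesicular glutamate transporter VGLUT2, lay at an anchor and inside a 53-PET loop. It was at 17.3, 22.1 and 19.1 CPM in controls and 6.73, 12.4 and 8.41 CPM in Kdm1a-ifKOs (log2FC -1.09, SE 0.210, adjusted p = 0.0215). The call was lost without control replicate 3 (adjusted p = 0.0939) and without Kdm1a-ifKO replicate 3 (0.115). Gm13713, antisense to Lrrc55, had a log2FC of -1.30 (SE 0.366, adjusted p = 0.0430), and this call too was lost without control replicate 1 or 3 or Kdm1a-ifKO replicate 1 or 3 (0.0875 to 0.161). The other 4, named after their values were seen, had log2FC of -0.76 (Enkur), -0.58 (Mcm5), -0.58 (Ppargc1b) and -0.57 (Slc17a8, the transporter VGLUT3), with adjusted p between 0.0409 and 0.0488 in edgeR.

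The developmental regulators, taken by the symbols of families such as Hox, Sox, Wnt and Fgf, had 48 of 257 members (18.7%) at or inside strong loops, including Hoxc4, Hoxc5, Hoxc6, Hoxc8 and Hoxc9. Of all counted genes with a position, 3342 of 48435 (6.9%) lay there, and of the protein-coding ones 1875 of 21772 (8.61%). Most of the 48 were too low to test. Of the 21 tested, 4 were higher at an adjusted p under 0.05 and none lower. Over the whole list, 21 of 125 tested members were higher and 3 lower, beside 6.04% and 2.82% of all tested genes. Wnt4, a signalling ligand, was the single protein-coding gene in its 202-PET loop. It was at 13.9, 13.3 and 13.1 CPM in controls and 24.2, 26.2 and 23.5 CPM in Kdm1a-ifKOs (log2FC 0.87, SE 0.0797, adjusted p = 1.11e-05). Sox18, a factor of endothelial cells, had a log2FC of 0.70 (SE 0.147), Bmp1, a protease that trims procollagen, of 0.66 (SE 0.0784), and the receptor gene Fgfr1 of 0.26 (SE 0.0629). Fgfr1 no longer passed without control replicate 2 or Kdm1a-ifKO replicate 1 or 3 (adjusted p 0.0556 to 0.148) and under the replicate block (0.0541).

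The other lists had between 1 and 13 members at strong loops. The genes of CTCF, cohesin and their regulators had 1 of 16 there, Wapl, which releases cohesin. It did not pass in edgeR or DESeq2, but had an unadjusted p under 0.05 (log2FC -0.21). Over that list none was higher and 2 lower (Yy1 and Pds5b). The excitability and synapse list had 7 of 58 members at strong loops, among them Camk2a, Cacna1e, Kcna1, Kcna2, Kcnc1 and Shank2. None of these 7 passed in edgeR, none had an unadjusted p under 0.05 and 1 passed in DESeq2, while over the list none was higher and 9 of 58 were lower, beside 2.82% of all tested genes. Ribosomal protein symbols (9 of 101, also taking kinases such as Rps6ka5) and oxidative phosphorylation (6 of 89) had no call at strong loops in either tool, with 3 and 0 members at an unadjusted p under 0.05. Over these lists no oxidative gene passed, and the 2 ribosomal symbols that passed, Rps6kb1 and Rps6ka2, were both lower and both encode S6 kinases, not ribosomal proteins. Olfactory, vomeronasal and taste receptors had 13 of 1441 members (0.902%) at strong loops, all olfactory, and none of the 13 could be tested.

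Markers of cell types were read beside these changes at an adjusted p under 0.05 alone, a rule that 6.04% of all tested genes passed as higher and 2.82% as lower. Of 6 microglial markers, 3 were at strong loops, and Cx3cr1 (log2FC 0.27) and Tmem119 (0.42) were higher there. The annotated body by which Cx3cr1 touched an anchor is long, and also overlaps Wdr48, Gorasp1, Ttc21a, Csrnp1 and Xirp1. Cx3cr1 no longer passed without control replicate 1 or 2 or Kdm1a-ifKO replicate 2 or 3 (adjusted p 0.0507 to 0.105), and Tmem119 without any control or Kdm1a-ifKO replicate 3 (0.0729 to 0.120). Over that list 3 were higher, and its summed level was 262 to 289 CPM in controls and 303 to 385 CPM in Kdm1a-ifKOs. Of 6 astrocyte markers 2 were higher, among them Slc1a3 in a 54-PET loop (log2FC 0.22), with sums of 1703 to 1835 and 2000 to 2195 CPM. Slc1a3 no longer passed without control replicate 1 or 2 or Kdm1a-ifKO replicate 1 or 3 (0.0503 to 0.0960). Of 7 interneuron markers, 4 lay inside strong loops (Slc32a1, Pvalb, Sst and Vip), and Vip was lower (log2FC -0.46, SE 0.101, adjusted p = 0.0122; 0.0630 and 0.0548 without Kdm1a-ifKO replicate 1 or 3), with sums of 826 to 897 and 804 to 837 CPM. Of 9 excitatory markers, 3 were at strong loops (Camk2a, Nrgn and Neurod2) and none of these passed, while 2 elsewhere were lower, with sums of 7645 to 8144 and 7543 to 8298 CPM. None of 7 oligodendrocyte, 5 endothelial or 3 ependymal markers passed in edgeR or DESeq2, with 1, 0 and 0 at an unadjusted p under 0.05, and 1 of 3 tested choroid plexus markers (Kl) was higher. The summed choroid plexus level was 33.8 to 56.9 CPM in controls and 63.8 to 69.3 CPM in Kdm1a-ifKOs. The sums of microglial, astrocyte and choroid plexus markers did not overlap between the groups. This was not particular to cell type markers. Sums of the excitability and synapse list (26339 to 27550 CPM in controls, 24528 to 26204 CPM in Kdm1a-ifKOs) did not overlap either. The same held for the ribosomal symbols (4643 to 4962 and 4989 to 5125 CPM) and the developmental regulators (3295 to 3336 and 3437 to 3542 CPM). Every marker had counts in at least 1 library. The part of cell composition in the changes at strong loops was not tested.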

How the data were processed

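CTCF ChIA-PET (1 library) and hippocampal RNA-seq (3 control and 3 Kdm1a-ifKO mice, 1 library each) were analysed. The authors processed the ChIA-PET reads with ChIA-PIPE and deposited loops with their PET counts, and loops under 3 PETs, or lacking a CTCF peak at either anchor, had been removed. The RNA-seq values are deposited read counts per gene, for which the submitters' processing notes name cutadapt 1.18, HISAT2 2.1.0, HTSeq 0.11.1 and SAMtools 1.9. The strand setting of the counting is not given in the sources used here. Coordinates are on GRCm38 (mm10), and 99.3% of 48795 counted genes had a position. The sequences come from the RefSeq GRCm38 genome.

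Counts were tested in edgeR 4.0.16 (R 4.3.3; filterByExpr, TMM, robust quasi-likelihood F test, two-sided, Benjamini-Hochberg over 16799 genes). TPM used summed exon lengths, and was used only to compare levels between genes. Motifs were read with pysam 0.24.0. The scripts were tested on simulated data. Alternatives were DESeq2 1.42.0, other size factors, no low-count filter, a replicate block and leaving out each library. Other PET thresholds, motifs and definitions of gene overlap were also used. With 3 against 3 mice, an exact permutation test of a single gene cannot go below p = 0.1, so only the fit across all genes was used. Counting intervals cover counting error only.

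The members and the gene lists were chosen with earlier results of these data known. Named genes were those of the 15 strongest loops (at most 6 each), up to 30 called genes by the size of the log2FC with at least 1 CPM in the higher group, the 10 highest genes at anchors, Kdm1a, and list members that passed the test. The genes next to Camk2a were read because of the transgene. Lists were loop machinery, excitability and synapse, developmental regulators, ribosomal proteins, oxidative phosphorylation, receptor families silent in brain, and cell type markers. Some named genes are not reported here.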

Additional observations from a re-analysis of the deposited data

How the results depend on the processing

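Of the 30 named called genes, none changed direction under any alternative, DESeq2 lost B230206L02Rik and Gm13713, and the replicate block lost Gm13713. With a PET minimum of 40, the strong loops held 36.9% of PETs with a median anchor width of 5.94 kb. With a minimum of 75, they held 22.6%, with a width of 7.97 kb, 0.0% on chromosome X, 863 genes at anchors (1 lower) and 1370 inside (28 higher, 1 lower). Genes at anchors numbered 2530 within 10 kb (78 higher) and 768 by a start site within 2 kb (27 higher, 2 lower). Only protein-coding genes left 1118 inside, and inner anchor edges gave a median of 3.05 TPM and 26 higher genes. DESeq2 called 2 lower genes at anchors and 2 inside. Without a low-count filter, 11 genes inside and 140 overall were lower. Leaving out 1 library gave 38 to 47 higher and 0 to 9 lower genes at anchors, 36 to 46 and 2 to 11 inside, and 444 to 490 and 20 to 93 overall.

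Chosen after seeing the data, a window of 1 kb gave a convergent share of 71.0% (58.7% to 80.8%, 62 loops). In that window the share was 68.5% at 10 to 49 PETs and 46.1% at 3 to 9 PETs. Anchors cut to 1 kb on each side of the midpoint, also chosen after seeing the data, touched 993 genes (35 higher, 3 lower). Without the loops whose anchors overlap, 1381 genes lay at anchors (45 higher, 4 lower).

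The replicate numbers did not pair the samples, since deviations of same-numbered libraries correlated at -0.0326, -0.0911 and -0.148. With the replicate block, 45 genes at anchors were higher and 2 lower, 40 inside were higher and 3 lower, and 486 and 33 overall. No sample correlated best with its own number. The single ChIA-PET library gives no replicate error for any loop.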
